A study of Homo sapiens with 8 samples.

Results

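The cornified envelope is the crosslinked protein and lipid shell that replaces the plasma membrane of a keratinocyte at the end of epidermal differentiation. A set of 45 genes of this programme was taken by gene symbol from the 20219 symbols on the array. It comprised 12 envelope precursors and scaffold proteins, 5 keratohyalin proteins of the S100-fused family, 3 transglutaminases, 9 genes of desquamation, 3 genes of the lipid barrier, 6 calcium-binding proteins and 7 secreted, membrane or regulatory differentiation genes. All 45 were on the array, on 47 features, because CDSN had 3.

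Expression was measured in MIV-Luc cells, a luciferase-carrying derivative of MCF10CA1a, the metastatic member of the MCF10A series of human mammary epithelial lines. Every culture carried a pLKO lentiviral hairpin, either scrambled (shSCR) or against the interleukin-13 receptor IL13Rα2 (shIL13Rα2). The 4 groups were mock-treated shSCR cells, shSCR cells kept for 16 h in IL-13 at 20 ng/ml, mock-treated shIL13Rα2 cells, and shIL13Rα2 cells given the same IL-13 treatment, with 2 Affymetrix GeneChip arrays each. The methods call the 2 samples of a condition biological replicates and do not say how far apart the cultures were kept, so the p-values measure the spread between these samples. A single hairpin sequence stood for the knockdown, so an effect of the knockdown and one of that hairpin or of the transduced population cannot be told apart. The arrays measured bulk RNA, in which fewer cells expressing a gene and less RNA per cell cannot be told apart.

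In the epidermis, basal keratinocytes leave the cell cycle and make precursors such as involucrin, loricrin, the small proline-rich (SPRR) proteins and sciellin. Transglutaminases crosslink these precursors, lamellar granules deliver lipids through ABCA12, and kallikrein-related peptidases cut the corneodesmosomes so that the outermost cells are shed. IL-13 is a type 2 cytokine that signals mainly through STAT6, and in skin it is known for lowering the expression of several of these genes. IL13Rα2 binds IL-13 with high affinity and is regarded as a decoy receptor.

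The promoters of the members that IL-13 lowered past the adjusted threshold are shown because SCEL, TMEM45A and SPRR1B shared this direction, and that of SPRR1A because it is the close paralog of SPRR1B. Each is the 250 bases before the transcription start in the RefSeq annotation of GRCh38.p14, read 5′ to 3′ on the strand of the gene. SCEL lies at chr13:77535456-77535705, TMEM45A at chr3:100492369-100492618, SPRR1B at chr1:153030953-153031202 and SPRR1A at chr1:152983831-152984080, all on the plus strand. Capitals mark TGANTCA, the letters typical of a site for AP-1, a factor of the FOS and JUN families.
SCEL: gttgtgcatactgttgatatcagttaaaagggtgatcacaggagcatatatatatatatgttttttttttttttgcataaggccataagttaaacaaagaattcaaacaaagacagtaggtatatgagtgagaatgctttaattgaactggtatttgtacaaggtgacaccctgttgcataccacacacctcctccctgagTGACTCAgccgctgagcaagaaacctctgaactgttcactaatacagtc
TMEM45A: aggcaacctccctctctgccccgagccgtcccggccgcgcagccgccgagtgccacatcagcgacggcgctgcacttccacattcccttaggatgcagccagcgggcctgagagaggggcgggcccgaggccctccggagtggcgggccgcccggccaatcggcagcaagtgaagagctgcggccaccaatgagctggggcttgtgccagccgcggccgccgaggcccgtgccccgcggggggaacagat
SPRR1B: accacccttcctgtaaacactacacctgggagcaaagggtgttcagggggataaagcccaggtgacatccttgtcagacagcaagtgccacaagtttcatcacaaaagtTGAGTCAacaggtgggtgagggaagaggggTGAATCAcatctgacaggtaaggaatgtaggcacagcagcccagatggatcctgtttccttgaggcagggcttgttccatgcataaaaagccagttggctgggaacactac
SPRR1A: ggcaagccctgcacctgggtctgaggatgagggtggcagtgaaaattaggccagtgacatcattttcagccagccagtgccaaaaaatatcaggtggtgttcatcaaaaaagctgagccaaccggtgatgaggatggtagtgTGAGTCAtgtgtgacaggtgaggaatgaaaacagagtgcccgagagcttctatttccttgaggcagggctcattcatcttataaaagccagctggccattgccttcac

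The match in SCEL ended 42 bases before the start, those in SPRR1B ended 134 and 104 bases before it, and that in SPRR1A 101 bases before it. The TMEM45A window held none. Of the 37 members with a promoter entry, 14 held TGANTCA (37.8%), against 6.57% of all 35116 promoters searched on both strands over the same length. The letters TATAAA were in 15 of the 37 (40.5%), against 10.7% of all promoters. The letters TTCNNNNGAA, typical of a STAT6 site, were in 1 of the 37 (2.7%), that of TGM3, against 5.38% of all promoters. Matches were counted in 1 promoter per member, but in every promoter entry for the background. The members with TGANTCA included SCEL and SPRR1B, and also genes that did not pass the IL-13 test, such as IVL, LOR and FLG. These are matches of letters, and the motifs can overlap each other. A link between the letters and the IL-13 effect was not tested.

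IL13RA2 itself was checked first. On the log2 scale it read 8.07 and 8.09 in mock-treated shSCR cells, 9.36 and 9.33 in IL-13-treated shSCR cells, 6.52 and 6.34 in mock-treated shIL13Rα2 cells, and 8.23 and 8.15 in IL-13-treated shIL13Rα2 cells. The shIL13Rα2 arrays were lower than the shSCR arrays of the same treatment, and the mean knockdown effect was a log2 fold change of -1.40 (SE 0.08, limma adjusted p = 0.00105). IL-13-treated shIL13Rα2 cells still reached the level of mock-treated shSCR cells. The basal epithelial markers ranged from 6.17 (ITGB4) to 12.10 (ITGA6) in mean log2 level. The general and luminal epithelial markers, hormone receptors included, ranged from 3.20 (PGR) to 11.99 (EPCAM). Of the 6 leukocyte and 6 fibroblast markers, 0 had an adjusted p under 0.05 in any comparison. The leukocyte markers ranged from 2.47 (PTPRC) to 6.99 (CD68) in mean log2 level, and the fibroblast markers from 2.37 (LUM) to 6.14 (COL1A1).

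The array medians lay between 5.02 and 5.06, and 23 of the 47 member features had a mean level under 5, as did 49.4% of all features. For 40 of the 45 genes, on 42 features, the 8 arrays spanned less than 1 log2 unit, as they did for 94.4% of all features. The table gives no detection calls, so a low value cannot be read as absence of the transcript, and levels are not compared between genes because each feature has its own probes.

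IL-13 lowered the expression of 3 of the 45 genes past an adjusted p of 0.05 in the mean effect over both constructs, which uses all 8 arrays, against 0.233% of all features in either direction. TMEM45A and SCEL fell by more than 2-fold, and SPRR1B fell by less. The remaining 42 genes did not pass the test. Under the calling rule used throughout (limma adjusted p under 0.05 over all 29141 features and a fold change above 2), 2 of the 45 members were called, against 0.0927% of all features. The study's own list of genes lowered by IL-13 in shSCR cells, made from these arrays, already held TMEM45A. Its place in these counts is therefore not independent of the data.

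TMEM45A encodes a transmembrane protein expressed in differentiating keratinocytes. Its log2 values were 7.91 and 7.80 in mock-treated shSCR cells, 6.78 and 6.53 in IL-13-treated shSCR cells, 7.94 and 8.01 in mock-treated shIL13Rα2 cells, and 6.90 and 6.70 in IL-13-treated shIL13Rα2 cells. All 4 IL-13-treated arrays were lower than all 4 mock-treated arrays, and the mock-treated groups lay close together. The mean IL-13 effect was a log2 fold change of -1.19 (SE 0.09, 95% interval -1.40 to -0.98, adjusted p = 0.0032), or 2.28-fold lower. The effect was -1.20 in shSCR cells (SE 0.13, adjusted p = 0.0344) and -1.18 in shIL13Rα2 cells (SE 0.13, adjusted p = 0.0358). The fold changes of these comparisons share no arrays, but their SE and p-values come from the same fit and share its variance estimate. The difference between these effects, the interaction, was 0.02 with a 95% interval of -0.41 to 0.44. The mean knockdown effect on TMEM45A was 0.13 (95% interval -0.08 to 0.34, adjusted p = 0.659).

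SCEL encodes sciellin, a precursor of the cornified envelope. Its log2 values were 6.90 and 7.07 in mock-treated shSCR cells, 6.15 and 5.99 in IL-13-treated shSCR cells, 7.04 and 6.82 in mock-treated shIL13Rα2 cells, and 5.74 and 5.66 in IL-13-treated shIL13Rα2 cells. Both mock-treated groups overlapped, the IL-13-treated shSCR arrays lay below them, and the IL-13-treated shIL13Rα2 arrays were the lowest of all. The mean IL-13 effect was -1.07 (SE 0.09, 95% interval -1.28 to -0.86, adjusted p = 0.0039), or 2.10-fold lower. The effect was -0.91 in shSCR cells (SE 0.13, adjusted p = 0.107) and -1.23 in shIL13Rα2 cells (SE 0.13, adjusted p = 0.0271).

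Going down the 4 group means of SCEL, the step from mock-treated shSCR cells (6.98 ± 0.12, SD, n = 2) to mock-treated shIL13Rα2 cells (6.93 ± 0.15, SD, n = 2) was within the spread of the arrays. The step from IL-13-treated shSCR cells (6.07 ± 0.11, SD, n = 2) to IL-13-treated shIL13Rα2 cells (5.70 ± 0.05, SD, n = 2) was a log2 fold change of -0.37 (SE 0.13, 95% interval -0.66 to -0.08, limma adjusted p = 0.604). It did not pass the test, although the arrays of these groups did not overlap. The interaction was -0.31 with a 95% interval of -0.73 to 0.10 and a limma adjusted p of 0.989, so a larger IL-13 effect on SCEL in shIL13Rα2 cells was not shown.

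SPRR1B encodes a small proline-rich protein that transglutaminases crosslink into the envelope. Its log2 values were 7.48 and 7.42 in mock-treated shSCR cells, 6.29 and 6.62 in IL-13-treated shSCR cells, 6.966 and 6.999 in mock-treated shIL13Rα2 cells, and 6.60 and 6.38 in IL-13-treated shIL13Rα2 cells. The mock-treated shSCR arrays were the highest, the mock-treated shIL13Rα2 arrays came next, and the IL-13-treated groups overlapped at the bottom. The mean IL-13 effect was -0.74 (SE 0.10, 95% interval -0.97 to -0.52, adjusted p = 0.0365), or 1.67-fold lower. Without any 1 of the 8 arrays this adjusted p was 0.0622 to 0.185. SPRR1A had a mean IL-13 effect of -0.31 (SE 0.11, adjusted p = 0.48), and its arrays overlapped between treatments.

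**Figure D1:**
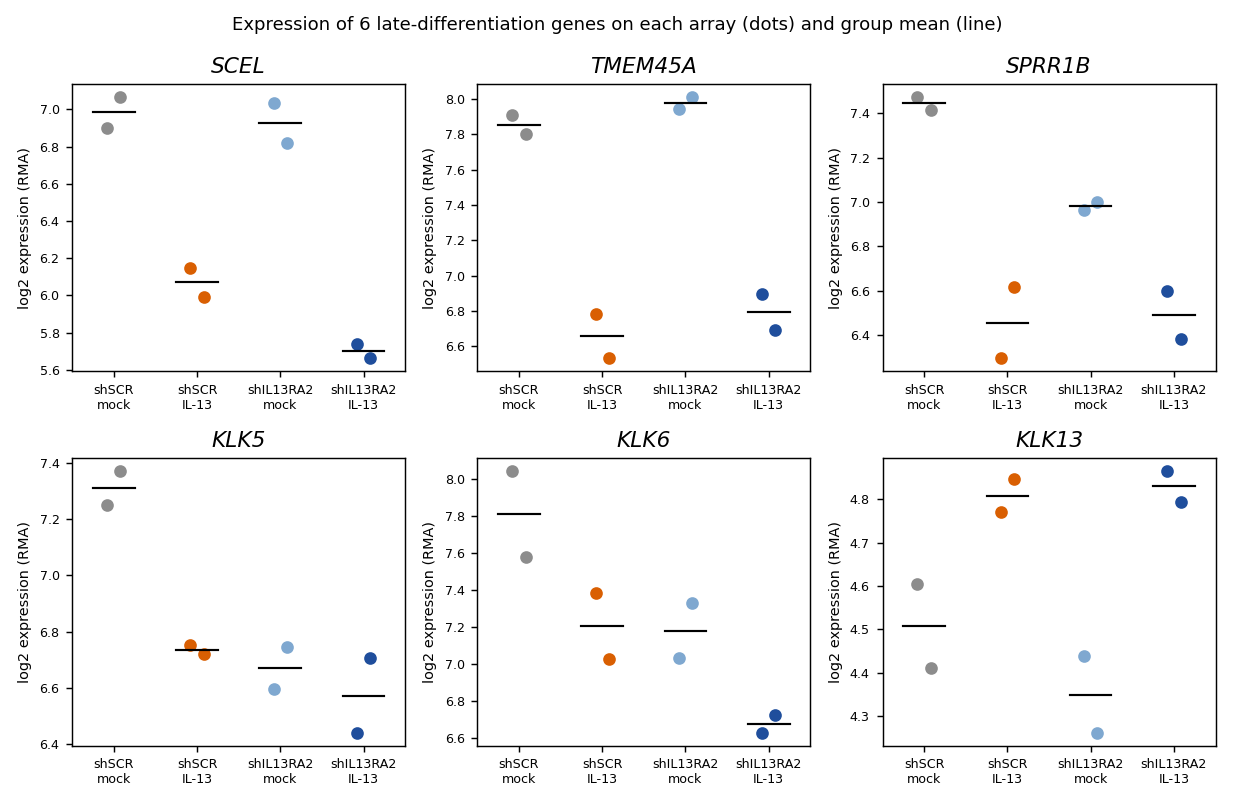
Log2 expression (RMA, vertical axes that differ between panels and do not start at 0) of 6 genes on each of the 8 arrays, as dots, with the mean of the 2 arrays of a group as a line (shIL13RA2 on the axes stands for shIL13Rα2). For SCEL, TMEM45A and SPRR1B all 4 IL-13-treated arrays lie below all 4 mock-treated arrays, for KLK13 all 4 lie above, and for KLK5 and KLK6 the mock-treated shSCR arrays are the highest.

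In the mean IL-13 effect, 10 members had an unadjusted p under 0.05, against 8.73% of all features. Of these, 8 were lower, against 3.85% of all features, and 2 were higher, against 4.88%. The arrays of the treatments did not overlap for 3 members that were lower with IL-13 (1.93% of all features), namely SPRR1B, SCEL and TMEM45A, nor for 1 that was higher (2.85% of all features), KLK13. The median log2 fold change over the 47 member features was -0.05, against 0.01 over all features. For 43 of the 45 genes the 95% interval of the mean IL-13 effect lay within a 2-fold change in either direction, as it did for 99% of all features, and the genes outside were SCEL and TMEM45A.

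By role, the 12 envelope genes had a median log2 fold change with IL-13 of -0.19, with SCEL lowest and LOR, loricrin, highest at 0.06. CSTA, cystatin A, a protease inhibitor built into the envelope, read 9.86 and 9.70 in mock-treated shSCR cells, 9.41 and 9.35 in IL-13-treated shSCR cells, 9.72 and 9.52 in mock-treated shIL13Rα2 cells, and 9.55 and 9.51 in IL-13-treated shIL13Rα2 cells. Its treatments overlapped, with a mean IL-13 effect of -0.25 (SE 0.08, adjusted p = 0.455). IVL, involucrin, had -0.24 (95% interval -0.53 to 0.06).

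The 5 keratohyalin genes, filaggrin (FLG) among them, ranged from -0.14 (FLG2) to 0.15 (RPTN), and the 3 transglutaminases from -0.02 (TGM5) to 0.07 (TGM3). FLG, the source of the natural moisturizing factor, had a mean IL-13 effect of 0.08 (95% interval -0.12 to 0.28). LOR had an interval of -0.27 to 0.39. Both intervals lay within a 2-fold change, but these features were dim, LOR with a mean level of 3.46, and a change in a transcript below detection would not show.

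Of the 3 lipid barrier genes, ABCA12, the lamellar granule lipid transporter, read 10.62 and 10.57 in mock-treated shSCR cells, 10.42 and 10.50 in IL-13-treated shSCR cells, 10.47 and 10.49 in mock-treated shIL13Rα2 cells, and 10.20 and 10.26 in IL-13-treated shIL13Rα2 cells. The IL-13-treated shIL13Rα2 arrays were the lowest, and the other groups lay close together or overlapped. Its mean IL-13 effect was -0.19 (SE 0.07, adjusted p = 0.501). Among the 6 calcium-binding proteins, S100A7, psoriasin, had the highest mean IL-13 effect at 0.36 (SE 0.12, adjusted p = 0.453), and CALML5, a calmodulin-like skin protein, the lowest at -0.19.

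**Figure D2:**
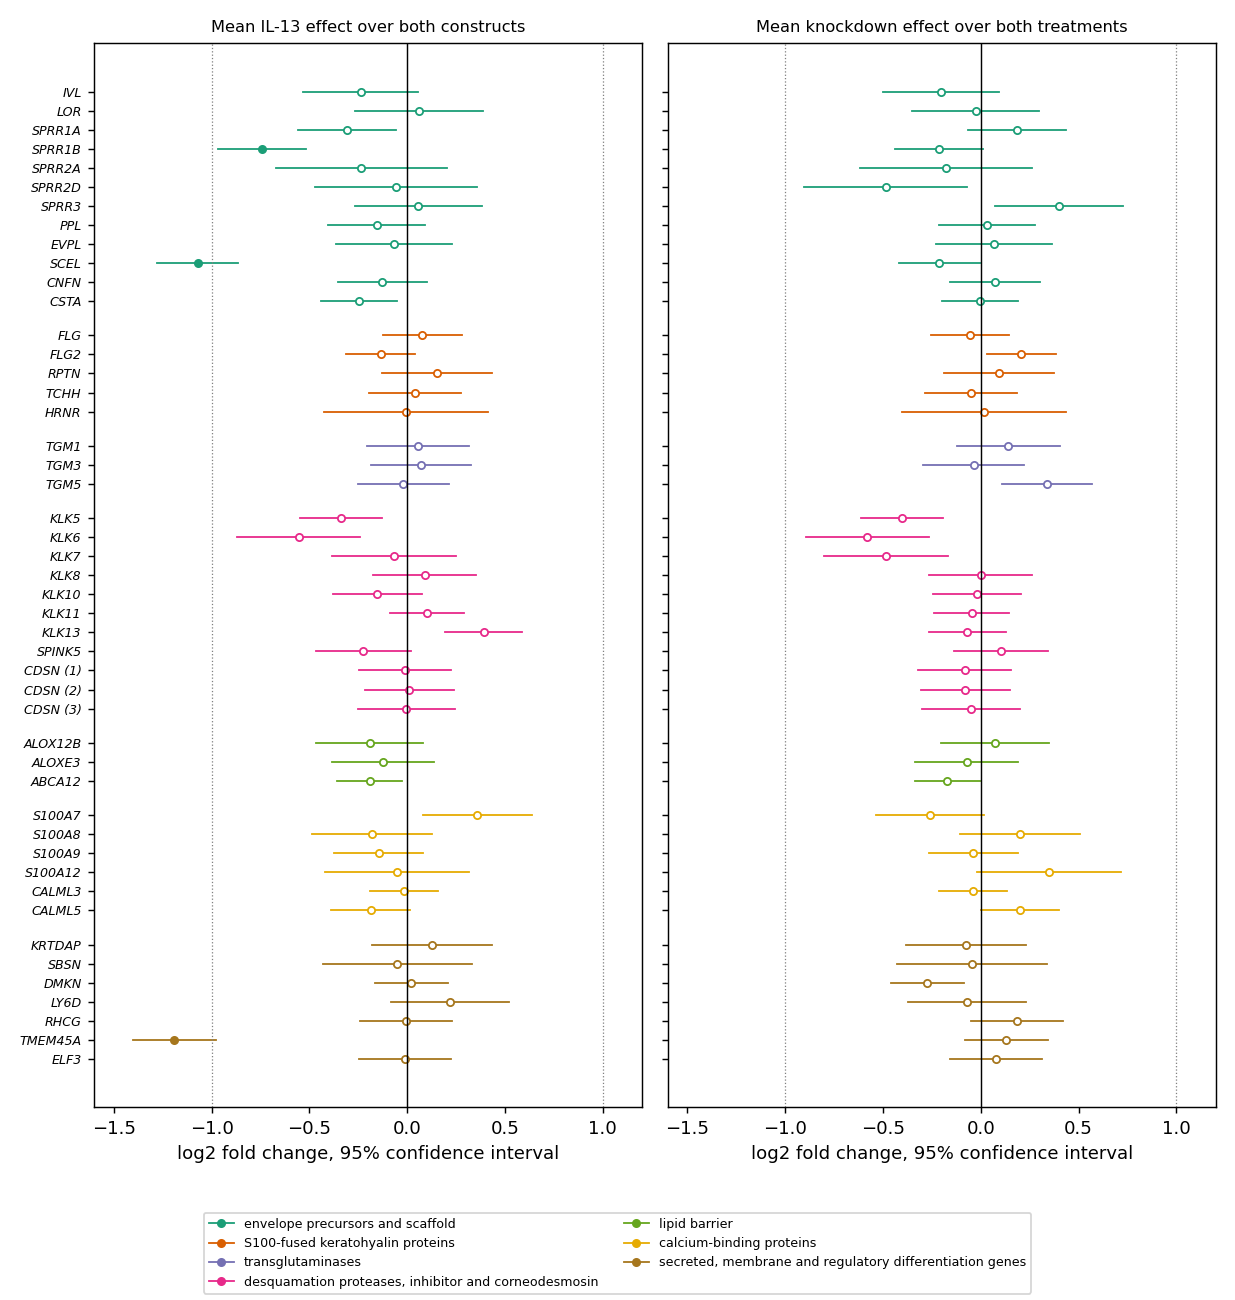
Log2 fold change with its 95% confidence interval for all 47 features of the 45 genes, coloured by role, for the mean IL-13 effect (left) and the mean knockdown effect (right); filled circles have an adjusted p under 0.05 and dotted lines mark a 2-fold change. SCEL and TMEM45A lie at -1.07 and -1.19 on the left, and no gene is filled on the right.

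The same genes were compared in each construct. IL-13 in shSCR cells gave 1 called member, TMEM45A, against 0.0583% of all features, and IL-13 in shIL13Rα2 cells gave 2, SCEL and TMEM45A, against 0.0618%. These calls rest on every array: without any 1 of the 8 arrays, 0 members were called in either comparison. At an unadjusted p under 0.05 there were 10 members in shSCR cells (6.79% of all features) and 8 in shIL13Rα2 cells (6.93% of all features). The IL-13 effects had the same sign in both constructs for 30 of the 47 member features, against 55% of all features.

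**Figure D3:**
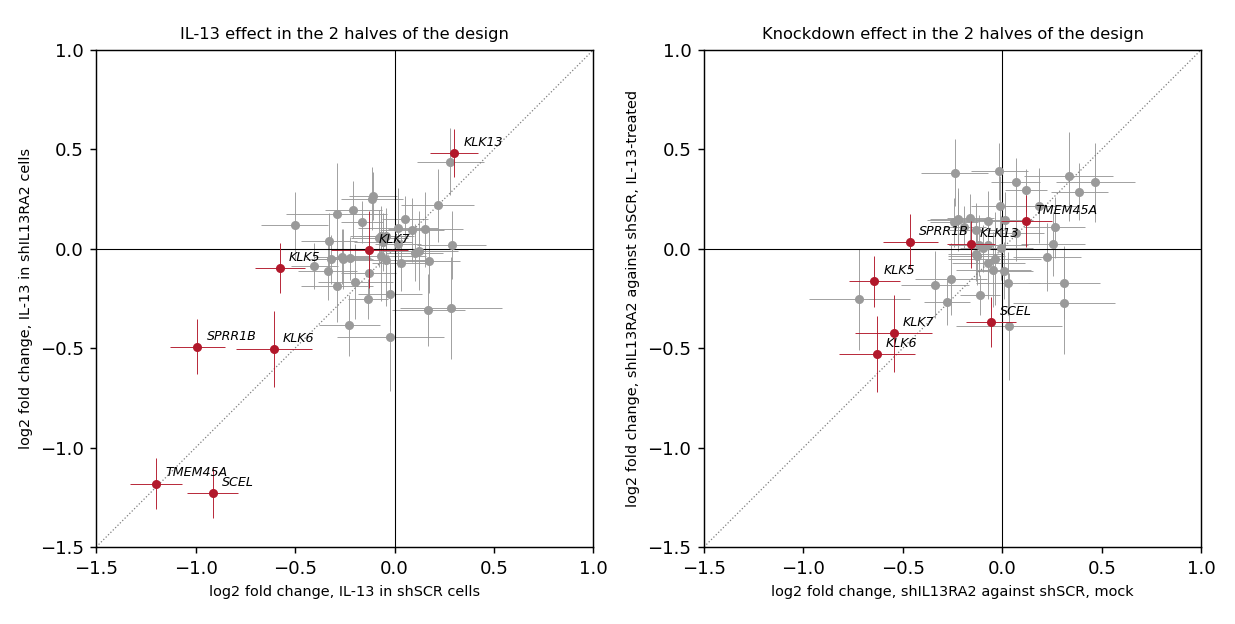
Log2 fold changes of the 47 member features, with standard errors as bars, in pairs of comparisons that share no arrays: IL-13 in shSCR cells against IL-13 in shIL13Rα2 cells (left), and the knockdown in mock-treated against IL-13-treated cells (right). The standard errors come from the same fit on all arrays. TMEM45A, at -1.20 and -1.18, lies on the dotted line of equality, and SPRR1B lies near 0 on the vertical axis of the right panel.

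Under the calling rule, the knockdown called 0 members. This held without IL-13 (0.0652% of all features called), among IL-13-treated cells (0.0515%) and for the mean knockdown effect over both treatments (0.0755%). In limma without adjustment, 8 members had a p under 0.05 without IL-13 (9.51% of all features), 6 among IL-13-treated cells (7.07%) and 10 in the mean effect (11.3%). Of these 10, 7 were lower (6.03% of all features) and 3 were higher (5.31%). The sign was the same in both treatments for 25 of the 47 member features, against 57.4% of all features. The 95% interval of the mean knockdown effect lay within a 2-fold change for all 45 genes, and for 99% of all features.

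The lowest mean knockdown effects belonged to kallikreins that lie next to each other on chromosome 19, KLK5, KLK6 and KLK7, together with SPRR2D at -0.49 (adjusted p = 0.376). The SPRR2D feature was dim, with a mean level of 3.69. KLK5 encodes a trypsin-like protease that starts the desquamation cascade. It read 7.25 and 7.37 in mock-treated shSCR cells, 6.75 and 6.72 in IL-13-treated shSCR cells, 6.59 and 6.74 in mock-treated shIL13Rα2 cells, and 6.44 and 6.70 in IL-13-treated shIL13Rα2 cells. The mock-treated shSCR arrays stood above all others, and the other 3 groups lay close together. The mean knockdown effect was -0.40 (SE 0.09, 95% interval -0.61 to -0.20, adjusted p = 0.151) and the mean IL-13 effect -0.34 (SE 0.09, adjusted p = 0.325). The interaction was 0.48 (95% interval 0.06 to 0.90), with an adjusted p of 0.989.

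KLK6, a trypsin-like protease, read 8.04 and 7.58 in mock-treated shSCR cells, 7.38 and 7.03 in IL-13-treated shSCR cells, 7.03 and 7.33 in mock-treated shIL13Rα2 cells, and 6.63 and 6.72 in IL-13-treated shIL13Rα2 cells. The mock-treated shSCR arrays were the highest, the IL-13-treated shIL13Rα2 arrays were the lowest, and the groups between them overlapped. The mean knockdown effect was -0.58 (SE 0.14, adjusted p = 0.17), and the mean IL-13 effect was -0.55 (SE 0.14, adjusted p = 0.281). Neither passed the test. When the limma prior was made robust and allowed to follow intensity, the adjusted p of the mean knockdown effect was 0.0337 for KLK6 and 0.0344 for KLK5, at under 2-fold, so these depend on the variance prior. The KLK6 interaction was 0.10 (95% interval -0.53 to 0.73).

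KLK7, a chymotrypsin-like protease that cuts corneodesmosin, read 5.51 and 5.28 in mock-treated shSCR cells, 5.14 and 5.39 in IL-13-treated shSCR cells, 5.13 and 4.56 in mock-treated shIL13Rα2 cells, and 4.89 and 4.79 in IL-13-treated shIL13Rα2 cells. All 4 shIL13Rα2 arrays were lower than all 4 shSCR arrays, by a narrow margin, with a mean knockdown effect of -0.49 (SE 0.14, adjusted p = 0.262). KLK13 read 4.61 and 4.41 in mock-treated shSCR cells, 4.77 and 4.85 in IL-13-treated shSCR cells, 4.44 and 4.26 in mock-treated shIL13Rα2 cells, and 4.87 and 4.79 in IL-13-treated shIL13Rα2 cells. It was thus higher on all 4 IL-13-treated arrays, with a mean IL-13 effect of 0.39 (SE 0.08, adjusted p = 0.221), which did not pass the test. The KLK13 feature was dim, with a mean level of 4.62. KLK8, KLK10 and KLK11 had mean knockdown effects within 0.05 of 0.

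**Figure D4:**
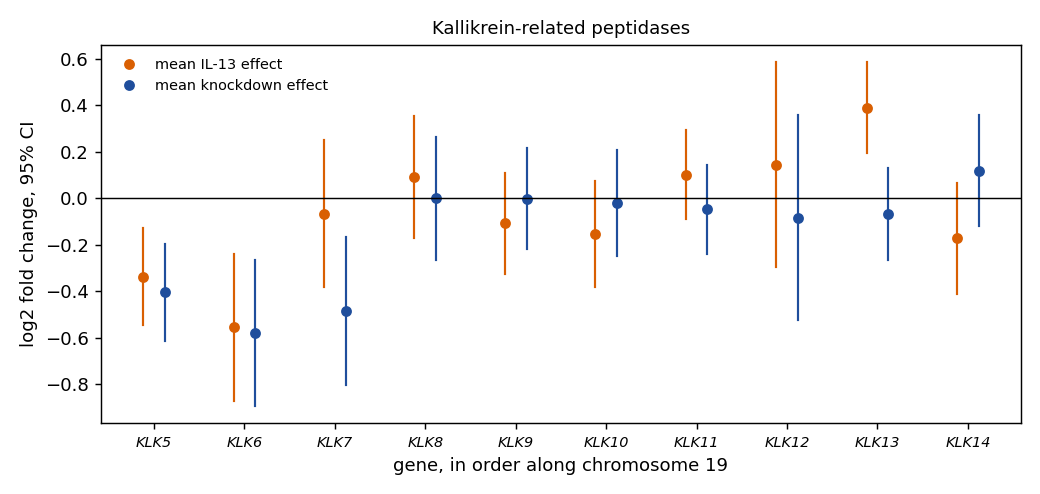
Mean IL-13 effect (orange) and mean knockdown effect (blue) on 10 kallikrein genes, as log2 fold changes with 95% confidence intervals, in their order along chromosome 19. KLK5, KLK6 and KLK7 have the lowest knockdown effects, -0.40, -0.58 and -0.49, and KLK13 has the highest IL-13 effect, 0.39.

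Among the remaining genes, DMKN, which encodes the secreted protein dermokine, read 6.78 and 6.66 in mock-treated shSCR cells, 6.80 and 6.68 in IL-13-treated shSCR cells, 6.52 and 6.37 in mock-treated shIL13Rα2 cells, and 6.43 and 6.51 in IL-13-treated shIL13Rα2 cells. DMKN and KLK7 were the 2 members whose shIL13Rα2 arrays all lay below the shSCR arrays (3.87% of all features), and the DMKN effect was -0.27 (SE 0.08, adjusted p = 0.281). TGM5, transglutaminase 5, read 5.34 and 5.60 in mock-treated shSCR cells, 5.59 and 5.41 in IL-13-treated shSCR cells, 5.87 and 5.85 in mock-treated shIL13Rα2 cells, and 5.66 and 5.91 in IL-13-treated shIL13Rα2 cells. It was the 1 member whose shIL13Rα2 arrays all lay above the shSCR arrays (3.26% of all features), with an effect of 0.34 (SE 0.10, adjusted p = 0.285).

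The combination of knockdown and IL-13 was set against mock-treated shSCR cells. This comparison shares its control arrays with those of IL-13 alone and of knockdown alone. It called 2 members, SCEL and TMEM45A, against 0.154% of all features, and 9 had an unadjusted p under 0.05 (9.56% of all features). SPRR1B was 1.94-fold lower (adjusted p = 0.0467), just short of the fold change threshold. KLK6 was 2.20-fold lower with a log2 fold change of -1.13 (SE 0.19, adjusted p = 0.0861), and KLK5 1.67-fold lower (adjusted p = 0.0892), and neither passed the test. With the dimmest 30% of features left out, their adjusted p was 0.046 and 0.0455, and with that robust prior 0.00757 and 0.011. Without mock-treated shSCR array A, mock-treated shSCR array B, IL-13-treated shIL13Rα2 array A or IL-13-treated shIL13Rα2 array B, 0 members were called. Without either mock-treated shIL13Rα2 array, 1 was called.

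In the interaction of knockdown and IL-13, 0 members had a limma adjusted p under 0.05 (0% of all features), and 3 had an unadjusted p under 0.05 (4.47% of all features), namely SPRR1B at 0.50, KLK5 at 0.48 and ALOX12B, a lipoxygenase of the lipid barrier, at 0.62. The interval of the interaction lay within a 2-fold difference for 40 of the 45 genes, on 42 of the 47 features, and for 88% of all features.

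Other genes of the differentiation programme were examined as lists. Of 31 measured genes of the late cornified envelope and epidermal differentiation complex, 0 had an adjusted p under 0.05 in any of the 8 comparisons. Of 31 measured suprabasal keratins, desmosome proteins and barrier enzymes, 1 did, CASP14, a protease of filaggrin breakdown. CASP14 had a mean IL-13 effect of -1.56 (SE 0.13, adjusted p = 0.0039), the same direction as SCEL, and a mean knockdown effect of 2.45 (SE 0.13, adjusted p = 0.00105). Of 21 regulators of epidermal differentiation, TP63, the master factor of stratified epithelia, and EHF, an epithelial ETS factor, passed in at least 1 comparison. EHF had a mean knockdown effect of 0.52 (SE 0.08, adjusted p = 0.0442). TP63 rose in both mean effects, by 0.94 with the knockdown (SE 0.12, adjusted p = 0.0225) and by 0.84 with IL-13 (SE 0.12, adjusted p = 0.0463), and by 1.78 in the combination (adjusted p = 0.00969).

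Markers of other epithelial states and of proliferation were set beside these results. In the mean IL-13 effect, 0 of 12 basal, 0 of 9 general and luminal and 0 of 10 proliferation markers had an adjusted p under 0.05. In the mean knockdown effect, DST, a basal hemidesmosome protein, rose by 0.46 on the log2 scale (limma adjusted p = 0.0459). A feature of the luminal keratin KRT18 fell by 0.60 (limma adjusted p = 0.0454). KRT18 had more than 1 feature, and only this 1 of the 12 general and luminal features passed in that effect. Over the features of the 12 basal markers, the mean level was 8.22 to 8.31 in mock-treated shSCR cells. It was 8.07 to 8.14 in IL-13-treated shIL13Rα2 cells. In the same groups, the general and luminal markers had 7.88 to 7.96 and 7.76 to 7.79. The proliferation markers had 9.55 to 9.56 and 9.39 to 9.46. The part of these levels in the results for the members was not tested.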

How the data were processed

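Expression was measured in 8 samples, 2 in each of 4 groups. The authors deposited log2 expression values, 1 per feature and array, made with RMA in Affymetrix Expression Console (version 1), a method that subtracts background, gives all arrays one distribution and combines the probes of a gene. A shift shared by most genes would therefore be removed. Of 33297 features, 4156 controls were left out and 29141 were tested, with no filter on signal.

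Group means were fitted with limma 3.58.1 in R 4.3.3 on the 8 arrays together, eBayes moderated the variances, and p-values were adjusted by Benjamini-Hochberg over all features. A member was called at an adjusted p under 0.05 and a fold change above 2, and for the interaction at the adjusted p alone. The fit was tested on simulated data. The number of arrays limits the precision. Columns were assigned to groups by construct and treatment, and A and B name the arrays of a group in column order.

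The members and lists were chosen with earlier results of these data known. Values on every array are given for members with an adjusted p under 0.05 in any comparison or an unadjusted p under 0.01 in a pairwise comparison or mean effect, and for SCEL. As alternatives, the methods' one-way analysis of variance was run over the 4 arrays of each comparison, with its p-values taken as they are or adjusted. limma was refitted on those 4 arrays, or its p-values were left unadjusted. The fold change threshold was set to 1.5 or dropped. The 30% of features with the lowest mean were removed, array medians were equalized, values were quantile-normalized again, the variance prior was given a robust intensity trend, and each array was left out in turn. Promoter sequences came from RefSeq on GRCh38.p14, where 37 of the 45 members had an entry.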

Additional observations from a re-analysis of the deposited data

How the results depend on the processing

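SCEL and TMEM45A remained called in the mean IL-13 effect under every alternative run, including each array left out in turn, where 2 members were called each time (adjusted p 0.0194 to 0.0335 for SCEL and 0.0135 to 0.0299 for TMEM45A). The calls within single comparisons were less stable. The adjusted methods' test and limma fitted to only the 4 arrays of a comparison each called 0 members for IL-13 in shSCR cells, for IL-13 in shIL13Rα2 cells and for the combination, and both use fewer arrays by construction. With 1 array left out, the counts were 0 to 0, 0 to 0 and 0 to 2 for the same comparisons. In the interaction, limma without adjustment called 3 members. KLK6 in the combination was called under the methods' test without adjustment, limma without adjustment, the dimmest 30% left out and the intensity trend with a robust prior. The intensity trend with a robust prior also took the adjusted p below 0.05, at under 2-fold, for SCEL (0.00914) and SPRR1B (0.00679) with IL-13 in shSCR cells, for KLK5 with the knockdown without IL-13 (0.036), for KLK5 (0.011) and ABCA12 (0.0116) in the combination, and for KLK5 (0.0344) and KLK6 (0.0337) in the mean knockdown effect. KLK5 in the combination was also below it with the dimmest 30% left out (0.0455). No called result changed sign. The methods' test and the fit on 4 arrays were not run for the mean effects and the interaction, which use all 8 arrays. No paired analysis was possible because the columns carry running numbers and not the replicate numbers of the labels.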
